A study of Caenorhabditis elegans with 16 samples.

Results

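The genes described here are some of those for methylation of lysine 27 of histone H3 (H3K27) in the nematode *Caenorhabditis elegans*. They encode enzymes that place or remove these methyl groups, or subunits and relatives of such enzymes. They are 7 of the 21982 genes in the deposited gene table, taken by name: the 4 demethylase genes *utx-1*, *jmjd-3.1*, *jmjd-3.2* and *jmjd-3.3*, and the 3 genes *mes-2*, *mes-3* and *mes-6* of a methyltransferase complex related to Polycomb repressive complex 2 (PRC2). All 7 are protein coding, and all 7 were among the 15840 genes with enough reads to be tested. Their 11 transcripts in the deposited transcript files are described where a gene has more than 1.

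Polyadenylated RNA of whole adult animals, about 1000 animals per library, was sequenced in 16 libraries that form 4 groups of 4 libraries. The labels call the first genotype H3K27ac-deficient, after acetylation of the same lysine. These animals carried a mutation of *jmjd-3.1* and were grown from the first larval stage to adult day 2 on bacteria that express double-stranded RNA against the histone acetyltransferase gene *cbp-1*. Wild-type animals (strain N2, Bristol) were grown over the same time on bacteria with the empty RNA interference (RNAi) vector. Within each genotype the animals were either deprived of food for 24 h between adult days 1 and 2 or fed ad libitum over that time. All groups were grown at 20 °C, all carry the same batch number in the labels, and the mutation and the *cbp-1* RNAi always occur together, so that they cannot be told apart. The labels name the *jmjd-3.1* allele gk384 in the titles and gk387 in the genotype field. The term labelled-deficient is used below for that genotype. Libraries held 16446081 to 27792762 estimated reads.

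Methylation of H3K27 marks genes that are kept silent. MES-2 is the catalytic subunit of the worm complex and the homologue of *Drosophila* E(z). MES-6 is the homologue of *Drosophila* ESC, a subunit that the enzyme needs for activity, and MES-3 has no clear sequence counterpart in *Drosophila* PRC2. The *mes* genes are named for maternal-effect sterility: without the maternal products the germ line of the offspring degenerates, and in the germ line the complex is known for its part in silencing the X chromosome. UTX-1 and JMJD-3.1 carry a Jumonji C domain and take methyl groups off H3K27. UTX-1 works with the H3K4 methyltransferase SET-16, and JMJD-3.2 and JMJD-3.3 are relatives assigned to the same family by sequence.

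The 4 demethylase genes lie on the X chromosome and the 3 *mes* genes on autosomes, all on the plus strand (WBcel235, Ensembl release 115). *utx-1* (WBGene00017046) spans X 8557146 to 8563238 and *jmjd-3.1* (WBGene00017571) spans X 8571047 to 8575451. They are neighbours, with 7808 bases and 0 annotated genes between them. *jmjd-3.3* (WBGene00007813) lies at X 13436422 to 13441438 and *jmjd-3.2* (WBGene00009089) at X 14448210 to 14453567. *mes-2* (WBGene00003220) lies at II 14383973 to 14388454, *mes-3* (WBGene00003221) at I 4996835 to 5003202 and *mes-6* (WBGene00003224) at IV 8511284 to 8513469. *mes-6* shares 380 exon bases with C09G4.4 on the same strand, so the reads of that stretch were divided between the genes by the quantification model. *jmjd-3.2* shares 11 exon bases with F23D12.7 on the opposite strand.

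The genes named in the genotype were checked before any comparison. *jmjd-3.1* is itself a member and its CPM values (read counts relative to library size after scaling by the trimmed mean of M values, TMM) are given further on: they were not lower in labelled-deficient libraries. The base range that the mutation removes is not given in the sources used here, and counts per gene do not show which exons were read, so the level of *jmjd-3.1* does not check the mutation. *cbp-1* had 259.9 to 321.8 CPM in fasted and 178 to 248 CPM in fed labelled-deficient libraries, against 128 to 171 CPM in fasted and 79.4 to 119.03 CPM in fed wild-type libraries. *cbp-1* was thus not lower in the libraries labelled as its knockdown. In a count per gene, reads from the double-stranded RNA given as food, if there were any, cannot be told apart from reads of the animals' own *cbp-1* RNA, so this level does not check the knockdown. Every direction between genotypes below rests on the labels. The labels number 4 independently synchronized experiments, so p-values measure the spread between such libraries.

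Levels of different genes were compared per length, as TPM (the length-corrected share of each library's transcripts, summed over those of a gene). In every group the 3 *mes* genes stood above the 4 demethylase genes, and *jmjd-3.3* was the lowest. The order among the *mes* genes differed between the genotypes. In fasted labelled-deficient libraries *mes-6* had 38.3 ± 2.00 TPM, *mes-3* 31.1 ± 0.988 TPM and *mes-2* 25.5 ± 1.27 TPM, followed by *jmjd-3.2* with 10.7 ± 0.992 TPM, *utx-1* with 9.46 ± 0.595 TPM, *jmjd-3.1* with 5.004 ± 0.256 TPM and *jmjd-3.3* with 1.73 ± 0.513 TPM (SD, n = 4). No neighbours in this order overlapped in that group. In fed labelled-deficient libraries the mean levels were 30.0 ± 3.66 TPM for *mes-6*, 21.1 ± 1.25 TPM for *mes-3*, 18.4 ± 2.83 TPM for *mes-2*, 6.52 ± 0.564 TPM for *utx-1*, 6.40 ± 0.664 TPM for *jmjd-3.2*, 3.58 ± 0.579 TPM for *jmjd-3.1* and 1.09 ± 0.236 TPM for *jmjd-3.3* (SD, n = 4). There the libraries of *mes-3* and *mes-2* overlapped, and so did those of *utx-1* and *jmjd-3.2*.

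In wild type *mes-3*, not *mes-6*, was the highest member. Its mean was 23.0 ± 0.594 TPM in fasted and 14.4 ± 1.34 TPM in fed wild-type libraries (SD, n = 4). *mes-6* followed with 15.5 ± 2.19 TPM in fasted and 10.0 ± 1.46 TPM in fed libraries, and its range overlapped that of *mes-2*, which had 12.8 ± 0.705 TPM in fasted and 8.81 ± 1.36 TPM in fed libraries. The demethylase genes had 10.1 ± 0.460 TPM (*jmjd-3.2*), 8.53 ± 0.521 TPM (*utx-1*), 3.89 ± 0.578 TPM (*jmjd-3.1*) and 1.92 ± 0.118 TPM (*jmjd-3.3*) in fasted wild type. In fed wild type *jmjd-3.2* had 3.01 ± 0.754 TPM and *utx-1* 2.95 ± 0.160 TPM, with overlapping libraries, *jmjd-3.1* 1.91 ± 0.106 TPM and *jmjd-3.3* 0.887 ± 0.143 TPM. Averaged over all 16 libraries, *mes-6* had a higher TPM than 76.6% of all genes in the table, *mes-3* than 76.0%, *mes-2* than 71.8%, *jmjd-3.2* than 61.7%, *utx-1* than 60.5%, *jmjd-3.1* than 53.0% and *jmjd-3.3* than 43.0%. Among all 21982 genes of the table the members were thus of middle to moderately high level. That table includes 1884 pseudogenes and the genes with too few reads to be tested. The place of the members among the 15840 tested genes alone was not taken, so these shares do not rank them among expressed genes.

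**Figure D1:**
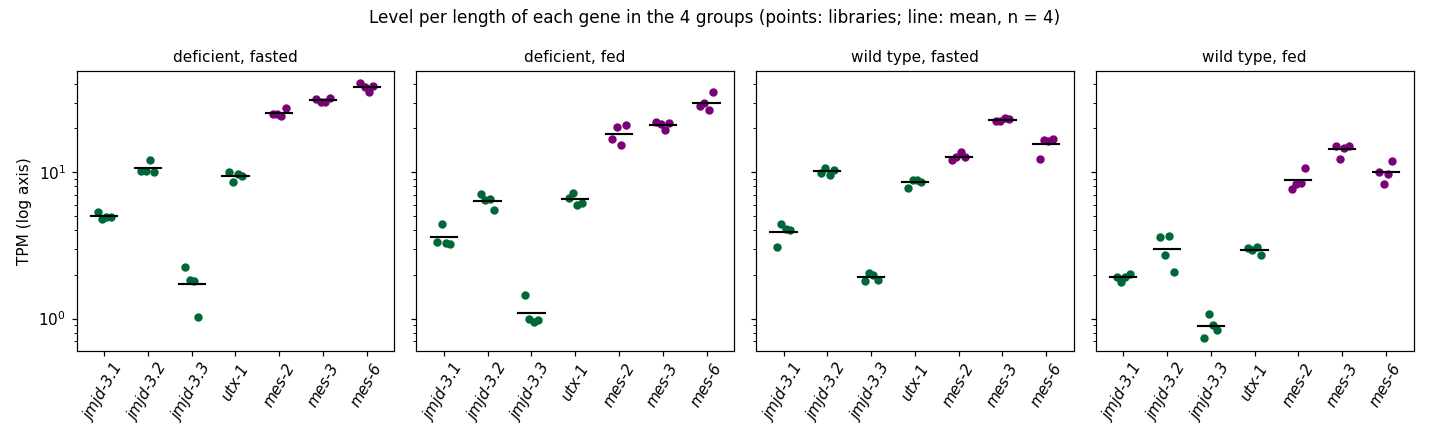
Level per length of the 7 genes in each group, with TPM on a log axis, 1 point per library and a line at the mean of 4 libraries. The 3 *mes* genes (purple) lie above the 4 demethylase genes (green) in every group, and *mes-6* leads in the labelled-deficient groups while *mes-3* leads in wild type.

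Changes between groups were taken from the TMM-scaled counts of all 15840 tested genes with the quasi-likelihood test of edgeR, with p-values adjusted over all of them and a threshold of 0.05. The demethylase genes are described first. In wild type, *utx-1*, *jmjd-3.2*, *jmjd-3.1* and *jmjd-3.3* all rose with fasting, by 2.26, 2.69, 1.62 and 1.76 times. When fed, *utx-1*, *jmjd-3.2* and *jmjd-3.1* were also higher in labelled-deficient than in wild-type animals, and fasting raised them by 1.29, 1.502 and 1.26 times in the labelled-deficient animals. After fasting none of the 4 differed between the genotypes at the threshold. For *utx-1* and *jmjd-3.2* the fasting response itself differed between genotypes. In RNA of whole animals, more cells of a type and more RNA per cell cannot be told apart.

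*utx-1* encodes the demethylase that works with SET-16. It had 46.0, 40.8, 43.6 and 44.5 CPM in the 4 fasted labelled-deficient libraries and 33.8, 37.3, 31.1 and 32.8 CPM in the fed ones. In wild type it had 43.2, 47.8, 46.9 and 46.1 CPM in fasted and 21.1, 21.5, 21.1 and 17.9 CPM in fed libraries. The fed wild-type libraries were the low group, the fed labelled-deficient ones lay between, and both fasted groups were high and overlapped each other. Fasting raised *utx-1* by 0.37 on the log2 scale in labelled-deficient libraries (SE 0.096; edgeR adjusted p 0.00445) and by 1.17 in wild type (SE 0.099; edgeR adjusted p 1.06e-09), with no overlap between fasted and fed libraries in either genotype. The difference between these responses, the labelled-deficient one minus the wild-type one, was -0.80 (SE 0.14; edgeR adjusted p 0.000170). Without the filter on low counts the labelled-deficient call was lost (0.26; adjusted p 0.0652). Between genotypes *utx-1* was higher by 0.73 in fed labelled-deficient libraries (SE 0.098; edgeR adjusted p 1.77e-06). In fasted libraries the genotype difference was -0.07 with a 95% interval of -0.26 to 0.11 (edgeR adjusted p 0.533), so a genotype difference as large as the fed one lies outside the interval.

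*jmjd-3.2*, a relative of *utx-1* assigned to the same demethylase family, followed the same order of groups. It had 32.6, 33.8, 38.3 and 33.2 CPM in fasted and 25.1, 23.1, 23.4 and 20.1 CPM in fed labelled-deficient libraries. Wild-type libraries had 39.2, 40.2, 36.1 and 38.6 CPM in fasted and 17.6, 13.3, 17.1 and 9.31 CPM in fed libraries. Again every fed wild-type library lay below every fed labelled-deficient one, and the fasted groups overlapped. Fasting raised *jmjd-3.2* by 0.59 in labelled-deficient libraries (SE 0.14; edgeR adjusted p 0.00247) and by 1.42 in wild type (SE 0.15; edgeR adjusted p 2.56e-08), and the difference between these responses was -0.84 (SE 0.20; edgeR adjusted p 0.00405). Between the fed groups it was higher by 0.68 in labelled-deficient libraries (SE 0.15; edgeR adjusted p 0.000434), while the fasted difference was -0.16 (95% interval -0.43 to 0.11; edgeR adjusted p 0.336).

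*jmjd-3.1* encodes the H3K27 demethylase that carries the mutation in the labelled-deficient animals. It had 23.2, 21.3, 21.1 and 21.8 CPM in fasted and 16.0, 21.4, 15.9 and 16.2 CPM in fed labelled-deficient libraries. Wild-type libraries had 16.4, 22.7, 20.8 and 20.3 CPM in fasted and 12.9, 11.9, 12.2 and 12.4 CPM in fed libraries. The fed wild-type libraries lay together below all others, and replicate 2 of the fed labelled-deficient group lay with the fasted libraries. Between the fed groups *jmjd-3.1* was higher by 0.50 in labelled-deficient libraries (SE 0.12; edgeR adjusted p 0.00158), and the fasted difference was 0.12 (95% interval -0.11 to 0.36; edgeR adjusted p 0.387). Fasting raised it by 0.70 in wild type (SE 0.12; edgeR adjusted p 4.69e-05). In labelled-deficient libraries the fasting change was 0.33 (SE 0.12; edgeR adjusted p 0.0363) with overlapping groups, and the difference between the responses, -0.37, did not pass (SE 0.17; edgeR adjusted p 0.109). The labelled-deficient fasting call was lost in 8 of 16 fits that left out 1 library: adjusted p was 0.105, 0.106 and 0.0826 without fed replicate 1, 3 or 4 of that genotype, 0.0940, 0.0601, 0.0545 and 0.0693 without fasted replicate 1, 2, 3 or 4, and 0.0650 without fasted wild-type replicate 4. It was lost as well with the size factors of DESeq2 (0.25; adjusted p 0.111), which put the median of all genes lower by 0.08, without the filter on low counts (0.22; adjusted p 0.226), with the Wald test of DESeq2 (0.25; adjusted p 0.108) and with the 2 labelled-deficient groups fitted alone (0.26; adjusted p 0.0823).

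*jmjd-3.3*, the other relative assigned to the family by sequence, had the lowest counts, so its values carry the widest error. It had 5.52, 4.30, 4.31 and 2.32 CPM in fasted and 3.78, 2.72, 2.82 and 2.58 CPM in fed labelled-deficient libraries. In wild type it had 5.25, 6.13, 6.24 and 4.86 CPM in fasted and 2.88, 4.14, 3.03 and 2.75 CPM in fed libraries. Only the wild-type groups were free of overlap. Fasting raised it by 0.82 in wild type (SE 0.21; edgeR adjusted p 0.00243), and the labelled-deficient change of 0.48 did not pass (95% interval 0.06 to 0.90; edgeR adjusted p 0.0826). The labelled-deficient change passed without fed replicate 1 (0.62; adjusted p 0.0471) or fasted replicate 4 (0.66; adjusted p 0.0120) of that genotype, and with a transcript length offset (0.53; adjusted p 0.0407). Unlike the other demethylase genes it was not higher in fed labelled-deficient libraries at the threshold, with a genotype difference of -0.10 (95% interval -0.53 to 0.34; edgeR adjusted p 0.726). In fasted libraries the genotype difference was -0.43 (SE 0.21; edgeR adjusted p 0.0770), and it passed without fasted wild-type replicate 4 (-0.55; adjusted p 0.0389) or fasted labelled-deficient replicate 1 (-0.62; adjusted p 0.0207).

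**Figure D2:**
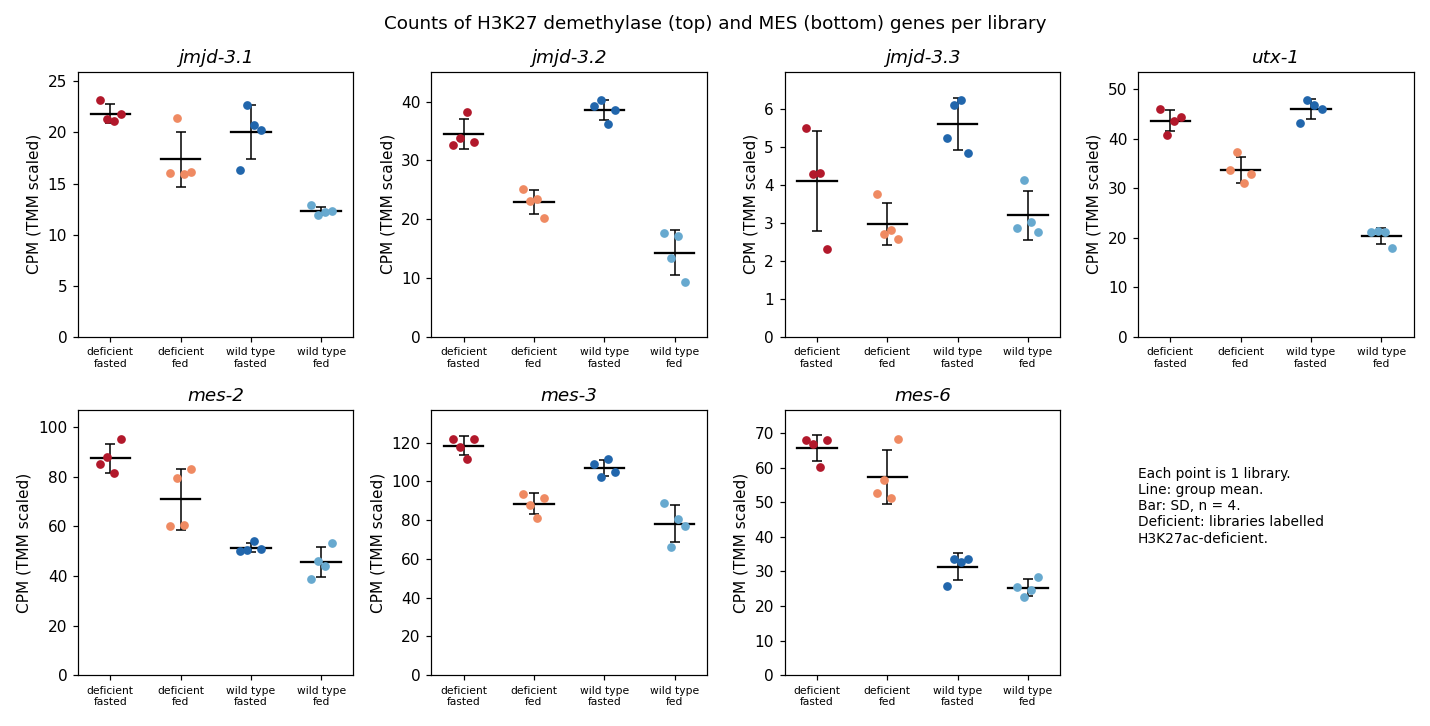
TMM-scaled CPM of each gene in every library, with the group mean (line) and SD (bar, n = 4), the labelled-deficient groups left of wild type and fasted left of fed. *utx-1* and *jmjd-3.2* are lowest in fed wild type and reach overlapping ranges in both fasted groups, whereas *mes-2* and *mes-6* stand higher in both labelled-deficient groups.

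The *mes* genes had a different pattern. *mes-2* and *mes-6* were higher in labelled-deficient than in wild-type libraries in both feeding states, by 1.56 and 2.26 times when fed and by 1.70 and 2.09 times when fasted. *mes-3* differed between the genotypes in neither state at the threshold, and rose with fasting in both genotypes, by 1.34 times in labelled-deficient and 1.37 times in wild-type libraries. No *mes* gene had a fasting response that differed between the genotypes at the threshold.

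*mes-6*, the ESC homologue, had the largest genotype difference among the members. It had 68.0, 67.02, 60.3 and 68.0 CPM in fasted and 52.7, 56.5, 51.3 and 68.5 CPM in fed labelled-deficient libraries. The wild-type values were 25.8, 33.5, 32.7 and 33.7 CPM in fasted and 25.5, 22.5, 24.5 and 28.5 CPM in fed libraries. The lowest labelled-deficient library was well above the highest wild-type one. *mes-6* was higher in labelled-deficient libraries by 1.18 when fed (SE 0.12; edgeR adjusted p 1.99e-08) and by 1.07 when fasted (SE 0.12; edgeR adjusted p 8.13e-08). Fasting raised it by 0.31 in wild type (SE 0.12; edgeR adjusted p 0.0247) with overlapping groups, and its labelled-deficient change was 0.20 (95% interval -0.02 to 0.42; edgeR adjusted p 0.172).

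The wild-type fasting call of *mes-6* was lost without fed replicate 2 or 3 (adjusted p 0.0853 and 0.0582) or fasted replicate 2, 3 or 4 (0.0724, 0.0635 and 0.0750), and without the filter on low counts (0.21; adjusted p 0.134). Its labelled-deficient fasting change passed without fed replicate 4 (0.30; adjusted p 0.0448) and with a filter of 5 CPM (0.26; adjusted p 0.0367). C09G4.4, with which *mes-6* shares exon bases, had 23.9 CPM in fasted and 18.9 CPM in fed labelled-deficient libraries, against 19.8 CPM in fasted and 14.7 CPM in fed wild-type libraries on average (n = 4). C09G4.4 differed less between genotypes, by 0.36 when fed and 0.27 when fasted. With the reads of the overlapping genes added together the genotype difference was 0.93 when fed (edgeR adjusted p 2.76e-08) and 0.81 when fasted (edgeR adjusted p 1.97e-07), a test of the pair that does not show to which gene the shared reads belong.

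*mes-2* encodes the catalytic subunit. It had 85.1, 87.9, 81.8 and 95.5 CPM in fasted and 60.4, 79.8, 60.5 and 83.3 CPM in fed labelled-deficient libraries. The wild-type values were 49.9, 50.7, 54.3 and 50.8 CPM in fasted and 38.9, 46.2, 44.0 and 53.4 CPM in fed libraries. The genotypes did not overlap in either state, whereas fasted and fed libraries overlapped within each genotype. *mes-2* was higher in labelled-deficient libraries by 0.64 when fed (SE 0.12; edgeR adjusted p 0.000108) and by 0.77 when fasted (SE 0.12; edgeR adjusted p 9.93e-06). The fasting change was 0.30 in labelled-deficient (SE 0.12; edgeR adjusted p 0.0505) and 0.17 in wild-type libraries (SE 0.12; edgeR adjusted p 0.217).

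The labelled-deficient fasting change of *mes-2* lay at the threshold: it passed without fed wild-type replicate 1 (adjusted p 0.0408) or 4 (0.0348) and without fed labelled-deficient replicate 2 (0.0375) or 4 (0.0160). It passed as well with library size alone (0.36; adjusted p 0.00757), the filter of 5 CPM (0.36; 0.00808), a transcript length offset (0.32; 0.0316) and limma voom (0.32; 0.0377). The wild-type one passed when libraries were scaled by size alone (0.52; adjusted p 0.000184), a scaling that moved the median of all genes by 0.34 in that comparison, and with the filter of 5 CPM (0.30; adjusted p 0.0177), which moved it by 0.13.

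*mes-3* encodes the subunit without a clear counterpart in the fly complex. It had 122.1, 117.5, 111.8 and 122.1 CPM in fasted and 93.3, 87.6, 81.1 and 91.7 CPM in fed labelled-deficient libraries. In wild type it had 108.9, 102.3, 111.8 and 104.99 CPM in fasted and 89.0, 65.9, 80.4 and 77.1 CPM in fed libraries. Fasted and fed libraries were apart within each genotype, and the genotypes overlapped within each state. Fasting raised *mes-3* by 0.42 in labelled-deficient (SE 0.098; edgeR adjusted p 0.00201) and by 0.45 in wild-type libraries (SE 0.099; edgeR adjusted p 0.000478). The difference between these responses was -0.03 with a 95% interval of -0.30 to 0.24 (edgeR adjusted p 0.879). The genotype difference was 0.18 when fed (95% interval -0.02 to 0.37; edgeR adjusted p 0.129) and 0.15 when fasted (95% interval -0.05 to 0.34; edgeR adjusted p 0.212). The fed one passed without fed wild-type replicate 1 (0.24; adjusted p 0.0451), with DESeq2 (0.22; adjusted p 0.0286) and with library size alone (0.47; adjusted p 0.000837), which moved the median of all genes by 0.29.

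**Figure D3:**
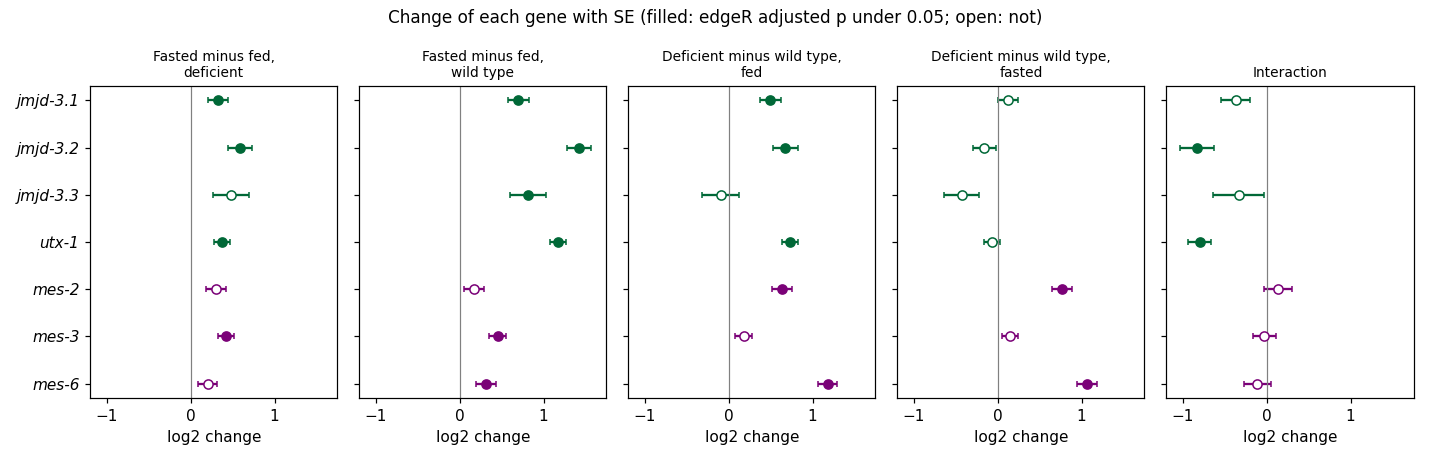
Log2 change of each gene in the 5 comparisons, with its SE, for demethylase genes (green) and *mes* genes (purple); filled points passed an edgeR adjusted p of 0.05 and open points did not. The fasting changes of *utx-1* and *jmjd-3.2* are larger in wild type, at 1.17 and 1.42, and the genotype differences of *mes-2* and *mes-6* are present in both states.

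Counted together, 6 of the 7 members rose with fasting in wild type and 0 fell, where 30.4% of all tested genes were called higher and 30.6% lower, 61.0% in all. In labelled-deficient libraries 4 of 7 rose with fasting and 0 fell, against 19.6% called higher and 15.7% lower, 35.3% in all. That count was 2 of 7 without the filter on low counts, and the call of *jmjd-3.1* in it was lost in 8 of 16 fits that left out 1 library. When fed, 5 of 7 were higher in labelled-deficient than in wild-type libraries and 0 were lower, where 24.6% of all genes were called higher and 31.7% lower, 56.2% in all. When fasted, 2 of 7 were higher and 0 lower, where 28.2% of all genes were called higher and 29.3% lower, 57.5% in all, so that count lay near the background. In the comparison of fasting responses 2 of 7 were lower in labelled-deficient libraries and 0 higher, where 11.4% of all genes were called lower and 14.5% higher, 25.9% in all. The median change of the members was 0.70 for fasting in wild type, where that of all genes was 0.01. It was 0.37 for fasting in labelled-deficient libraries (all genes 0.11), 0.64 for the genotypes when fed (all genes -0.08), 0.12 when fasted (all genes -0.04) and -0.34 for the difference of responses (all genes 0.07). These comparisons share groups, so the counts are not independent of one another.

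The position of the demethylase genes on the X chromosome was set beside the other X-linked genes. Of 2294 other tested genes on X, 12.2% were higher and 44.7% lower in labelled-deficient than in wild-type animals when fed, with a median change of -0.35. Of 13507 autosomal genes, 26.6% were higher and 29.5% lower, with a median of -0.02. *utx-1*, *jmjd-3.1* and *jmjd-3.2* were thus X-linked genes that were higher in a comparison in which more X-linked genes were lower than higher. When fasted, 7.76% of the other X-linked genes were higher and 44.0% lower, with a median of -0.33, against 31.7% and 26.8% of autosomal genes. For fasting in wild type 36.9% of the other X-linked genes were higher and 26.02% lower, against 29.2% and 31.5% of autosomal genes. The rise of the demethylase genes with fasting in wild type was thus in the direction in which more X-linked genes were called.

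Markers of tissues were read from lists, because whole animals were used. Their counts stand beside the shares of all tested genes called higher and lower. These were 24.6% and 31.7% between the fed genotypes and 28.2% and 29.3% between the fasted ones. For fasting they were 30.4% and 30.6% in wild type and 19.6% and 15.7% in labelled-deficient libraries. For the difference of responses they were 14.5% and 11.4%. All 10 markers of germ line proliferation and meiosis and all 10 of oocytes and early embryos were detected in every group. Of the germ line markers 10 of 10 were higher in fasted and 9 of 10 in fed labelled-deficient than in wild-type libraries, with median changes of 1.27 and 0.83. Their summed level was 887 to 1091 TPM in fasted and 679 to 1008 TPM in fed labelled-deficient libraries, against 335 to 438 TPM in fasted and 321 to 530.0 TPM in fed wild-type libraries. Of the oocyte and embryo markers 10 of 10 were higher in fasted and 1 of 10 in fed labelled-deficient than in wild-type libraries, and 10 of 10 fell with fasting in wild type. With fasting in wild type 1 of 10 germ line markers rose and 4 fell, with a median change of -0.14, whereas *mes-3* and *mes-6* were called higher. With fasting in labelled-deficient libraries 2 of 10 germ line markers rose and 0 fell, and 0 of 10 oocyte and embryo markers changed. The germ line markers thus moved in the direction of *mes-2* and *mes-6* between the genotypes, but not in that of *mes-3* and *mes-6* with fasting in wild type.

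The levels of the *mes* genes were therefore also taken relative to the summed germ line markers in the same library, as log2 ratios of TPM. The ratio of *mes-2* was -5.32 to -5.18 in fasted and -5.58 to -5.38 in fed labelled-deficient libraries, against -5.0999 to -4.76 in fasted and -5.62 to -5.27 in fed wild-type libraries. Relative to these markers *mes-2* was thus lower in fasted labelled-deficient than in fasted wild-type libraries and overlapped when fed. The ratio of *mes-6* was -4.81 to -4.57 in fasted and -4.85 to -4.67 in fed labelled-deficient libraries, against -4.77 to -4.50 in fasted and -5.47 to -5.05 in fed wild-type libraries, so it was higher when fed and overlapped when fasted. The ratio of *mes-3* was -5.09 to -4.87 in fasted and -5.53 to -5.03 in fed labelled-deficient libraries, against -4.24 to -3.90 in fasted and -5.12 to -4.45 in fed wild-type libraries. The last ratio was lower in fasted labelled-deficient than in fasted wild-type libraries and overlapped when fed. The part of germ line tissue in the genotype differences was not tested.

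Sperm markers were near background, with 0.772 to 4.11 summed TPM over 6 genes in any library, and *msp-142* was at 0 in all wild-type libraries. Of the 4 intestinal markers 1 was higher and 1 lower in fasted labelled-deficient than in wild-type libraries, and 0 were higher and 4 lower in the fed ones. Of the 4 body muscle markers 3 were lower in fasted and 2 in fed labelled-deficient libraries, and 0 and 1 were higher. Of the 4 neuronal markers 1 was lower in fasted and 3 in fed labelled-deficient libraries, and of the 4 hypodermal markers 1 was higher and 2 lower in fasted and 2 higher and 2 lower in fed ones. With fasting in labelled-deficient libraries 2 intestinal markers rose and 1 fell, 0 body muscle markers rose and 3 fell, 0 neuronal markers changed, and 0 hypodermal markers rose and 2 fell. With fasting in wild type 1 intestinal marker rose and 3 fell, 1 body muscle marker rose and 3 fell, 0 neuronal markers rose and 2 fell, and 1 hypodermal marker rose and 2 fell, among them the cuticle collagen gene *col-19* with a change of -3.25. In the difference of fasting responses 9 of 10 oocyte and embryo markers were higher in labelled-deficient libraries, 3 of 10 germ line markers were higher, 2 of 4 intestinal markers and 1 of 4 neuronal markers were higher, and 2 of 4 body muscle and 2 of 4 hypodermal markers were lower. Between the genotypes, counts of 1 of 4 markers lay near the shares of all genes called. The part of tissue composition in the demethylase results was not tested.

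Ratios between members inside a library do not depend on the scaling between libraries. The log2 ratio of *mes-6* to *mes-3* was 0.24 to 0.35 in fasted and 0.35 to 0.69 in fed labelled-deficient libraries, against -0.87 to -0.44 in fasted and -0.60 to -0.35 in fed wild-type libraries. It was thus above 0 in all 8 labelled-deficient and below 0 in all 8 wild-type libraries. The ratio of *mes-3* to *mes-2* was 0.23 to 0.34 in fasted and 0.05 to 0.40 in fed labelled-deficient libraries, against 0.78 to 0.89 in fasted and 0.50 to 0.98 in fed wild-type libraries. The ratio of *mes-6* to *mes-2* was 0.51 to 0.69 in fasted and 0.53 to 0.81 in fed labelled-deficient libraries, against 0.02 to 0.40 in fasted and 0.01 to 0.38 in fed wild-type libraries. None of the 3 ratios overlapped between the genotypes, so the estimated RNAs of the 3 subunits stood in different proportions in these libraries. The 3 ratios are not independent, because each follows from the others. Those with *mes-6* also depend on how the reads shared with C09G4.4 were divided. Of all tested genes 56.2% were called between the fed and 57.5% between the fasted genotypes. How often ratios of other genes separate the genotypes was not tested.

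The summed TPM of the 4 demethylase genes was 26.9 ± 1.62 in fasted and 17.6 ± 1.53 in fed labelled-deficient libraries, against 24.5 ± 1.41 in fasted and 8.76 ± 0.847 in fed wild-type libraries (SD, n = 4). That of the 3 *mes* genes was 94.9 ± 3.68 and 69.5 ± 6.99 in the labelled-deficient groups, fasted and fed, against 51.3 ± 3.15 and 33.2 ± 3.62 in the wild-type groups, fasted and fed (SD, n = 4). TPM carries no TMM scaling, and the mean TMM factor was 0.843 in fed wild type against 1.04 to 1.07 in the other groups. Rises of these sums from fed wild type are therefore larger than in scaled counts. *mes-2*, for example, had 8.81 TPM in fed and 12.8 TPM in fasted wild type. Its scaled counts overlapped there, with a change of 0.17 (edgeR adjusted p 0.217). The log2 ratio of the demethylase sum to the *mes* sum was -1.94 to -1.66 in fasted and -2.30 to -1.86 in fed labelled-deficient libraries, against -1.14 to -0.99 in fasted and -2.30 to -1.77 in fed wild-type libraries. Fasted wild type was thus the group in which demethylase RNA was highest relative to *mes* RNA, and the other 3 groups overlapped one another. Within the demethylase sum *utx-1* held a steady share, with means of 35.2% in fasted and 37.1% in fed labelled-deficient and 34.8% in fasted and 33.8% in fed wild-type libraries.

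**Figure D4:**
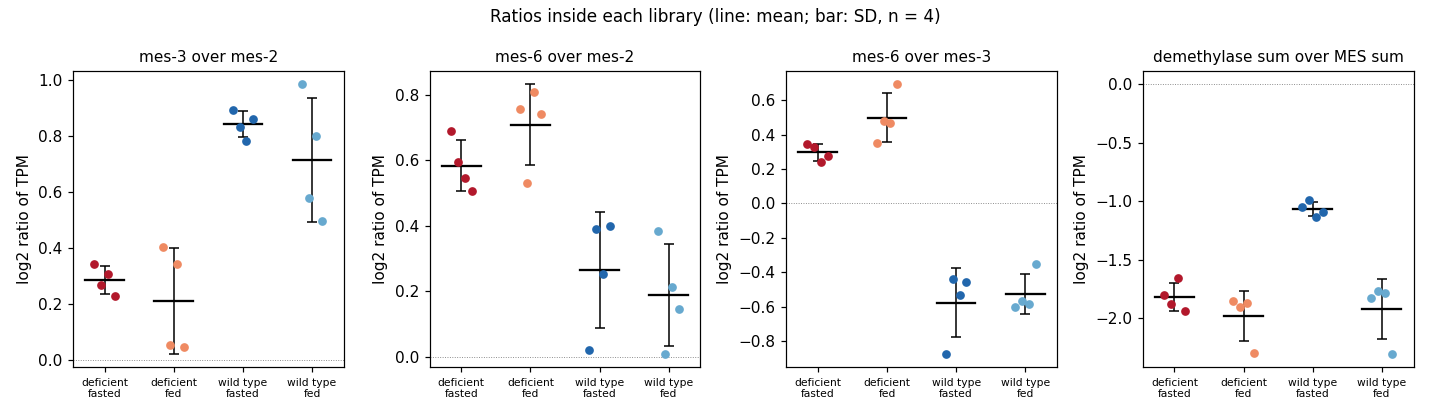
Log2 ratios of TPM inside each library for *mes-3* over *mes-2*, *mes-6* over *mes-2*, *mes-6* over *mes-3* and the summed demethylase genes over the summed *mes* genes, with the group mean (line) and SD (bar, n = 4). The 3 ratios among *mes* genes separate the genotypes, and the fourth panel separates fasted wild type, at -1.14 to -0.99, from the other groups.

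Of the members, *utx-1*, *jmjd-3.1*, *jmjd-3.3* and *mes-3* have 2 transcripts each in the deposited files. Over all libraries D2021.1a.1 held 82.9% to 100% of the TPM of *utx-1*. It differs from D2021.1b.1 by 15 exon bases (X 8558710 to 8558724) besides the ends, so few reads can tell them apart. For *jmjd-3.1* F18E9.5b.1 led with a mean share of 89.1% in fasted and 74.5% in fed labelled-deficient libraries, against 83.0% in fasted and 85.5% in fed wild-type libraries. F18E9.5a.1 was assigned 0 reads in 2 fasted and 1 fed labelled-deficient and in 0 fasted and 2 fed wild-type libraries. Among the member transcripts only D2021.1a.1 and R06A4.7.1 of *mes-2* have the same length in release 115 as deposited. C29F7.6b.1 of *jmjd-3.3* has 1753 bases as deposited and 990 in release 115. The exon differences given here are those of release 115 and may not hold for the sequences that were quantified. For *jmjd-3.3* the shorter C29F7.6b.1, which lacks the first exons, held 63.0% in fasted and 53.9% in fed labelled-deficient libraries, against 56.8% in fasted and 53.7% in fed wild-type libraries. For *mes-3* the quantification model assigned 0 reads to F54C1.3b.1 in all 16 libraries. In release 115 only 4 bases belong to that transcript alone, while 57 internal bases (I 4999790 to 4999846) belong to F54C1.3a.1 alone. How many reads crossed that stretch and could tell the transcripts apart was not tested. No upper bound on the reads of F54C1.3b.1 is therefore given.

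Transcript use was compared by the leading share. In 12 exact two-sided permutation tests of this share, 3 genes in 4 comparisons, the lowest p was 0.257 and every adjusted p was 1.0. With 4 against 4 libraries no p can fall below 0.0286, and a lone test at that p would have an adjusted p of 0.343 over the 12, so no single shift could have passed. The widest shift of a mean was 14.6 percentage points, for *jmjd-3.1* with fasting in labelled-deficient libraries. Fitted as transcripts, with 22850 tested, fasting in wild type raised the leading transcripts of *utx-1* (1.23; edgeR adjusted p 2.27e-07), *jmjd-3.2* (1.48; edgeR adjusted p 7.24e-06), *jmjd-3.1* (0.70; edgeR adjusted p 0.0355) and *jmjd-3.3* (0.99; edgeR adjusted p 0.0186). In this fit 19.8% of all transcripts were called higher with fasting in wild type. Reads of transcripts of the same gene are shared out by a model, and that uncertainty is not in these p-values.

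**Figure D5:**
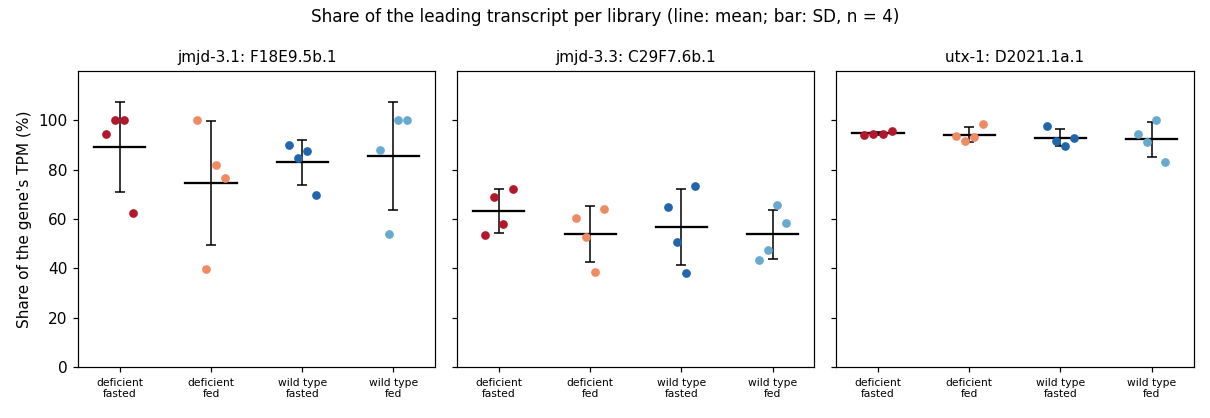
Share of the gene's TPM in its leading transcript, in percent, for *jmjd-3.1*, *jmjd-3.3* and *utx-1* in every library, with the group mean (line) and SD (bar, n = 4). The libraries of each group spread widely for *jmjd-3.1*, between 39.8% and 100%, and the groups overlap for all 3 genes.

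For each member the 3 genes with the most similar course over the 16 libraries were named by the Pearson correlation of log2 CPM, among 10095 or 10096 other genes with at least 5 CPM on average. Groups of 4 libraries share a mean, so such a correlation mostly reflects the 4 group levels. *utx-1* was most like *pals-39* (r = 0.99), *alh-13* (0.98) and *pgp-4* (0.98), and *jmjd-3.2* most like *saeg-2* (0.99), *epg-2* (0.99) and R10E8.8 (0.98). *pals-39* repeated the order of groups of *utx-1* on a larger scale, with 12.3 CPM in fasted and 5.88 CPM in fed labelled-deficient and 14.1 CPM in fasted and 1.19 CPM in fed wild-type libraries on average. *jmjd-3.1* was most like *pat-9* (0.95), *pqn-15* (0.94) and *cdh-4* (0.94), and *jmjd-3.3* most like T25D10.4 (0.87), Y41D4B.14 (0.87) and B0507.3 (0.86).

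*mes-2* was most like *cul-2* (0.99), *mcm-3* (0.99), a subunit of the replicative helicase, and *apd-3* (0.99). *mes-6* was most like *suf-1* (0.99), *knl-2* (0.99), a centromere protein, and *capg-1* (0.99), a condensin subunit. *mes-3* was most like C35E7.4 (0.96), *maea-1* (0.95) and *fbxa-198* (0.95). Among the members the highest correlations were 0.95 between *jmjd-3.2* and *utx-1*, 0.94 between *mes-2* and *mes-6* and 0.93 between *jmjd-3.1* and *utx-1*. With the group means removed these were 0.51, 0.59 and 0.63. *mes-2* and *mes-3* correlated at 0.54 over the 16 libraries and at -0.08 with the group means removed.

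Genes that act with or beside these enzymes were counted by list, beside the shares of all tested genes: 30.4% were called higher and 30.6% lower with fasting in wild type, 19.6% and 15.7% with fasting in labelled-deficient libraries, 24.6% and 31.7% between the fed genotypes, 28.2% and 29.3% between the fasted ones, and 14.5% and 11.4% for the difference of responses. Of the 6 partners of UTX-1 in the SET-16 complex, 4 were higher and 0 lower in labelled-deficient than in wild-type libraries both when fasted and when fed, and 2 rose and 0 fell with fasting in each genotype, which in wild type is about the share of all genes called higher. *set-16* itself, which encodes the H3K4 methyltransferase of the complex, was higher by 0.89 when fasted and 0.63 when fed. *pis-1* rose with fasting in wild type by 0.60. The median of this list was 0.47 in the fasted and 0.28 in the fed genotype comparison. None of the 6 differed in its fasting response at the threshold, unlike *utx-1*; whether it differed from them was not tested.

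Of 9 other histone demethylase genes 8 were tested. When fed 5 were higher in labelled-deficient libraries and 2 lower, and likewise 5 and 2 when fasted. *rbr-2*, an H3K4 demethylase, was higher by 0.93 when fed and *spr-5*, an LSD1-type H3K4 demethylase, by 0.87. The related *lsd-1* was lower by 0.76 (change -0.76). In wild type 4 rose with fasting and 1 fell, and in labelled-deficient libraries 2 rose and 0 fell. None differed in its response.

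Of 13 other histone methyltransferase genes 8 were higher and 1 lower in fed, and 9 higher and 0 lower in fasted, labelled-deficient than in wild-type libraries. *mes-4*, an H3K36 methyltransferase that acts with the *mes* complex in the germ line, was higher by 0.99 when fed and 0.75 when fasted. With fasting 4 rose and 0 fell in labelled-deficient libraries, and 8 rose and 2 fell in wild type, where *set-2*, an H3K4 methyltransferase, rose by 1.04. The responses of *set-2* and *met-1* differed between genotypes in the same direction as those of *utx-1* and *jmjd-3.2*, by -0.60 and -0.43. Of 8 Polycomb-like and chromodomain reader genes 3 were higher and 1 lower when fed, and 4 higher and 1 lower when fasted. *cec-6*, which encodes a chromodomain protein, was higher by 1.31 when fed and 0.92 when fasted. In this list 2 rose and 0 fell with fasting in labelled-deficient libraries, and 4 rose and 1 fell in wild type. For the difference of responses 1 was higher and 0 lower. It was *sor-1*, at 0.48 (edgeR adjusted p 0.0398), the opposite direction to *utx-1* and *jmjd-3.2*.

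Hox genes are known targets of H3K27 methylation in animals, and all 6 of the worm were tested. With fasting 0 changed in labelled-deficient libraries and 1 fell in wild type, *php-3*, by 1.02 on the log2 scale (change -1.02). *php-3* had 10.9 CPM in fasted and 10.6 CPM in fed labelled-deficient libraries, against 8.36 CPM in fasted and 16.98 CPM in fed wild-type libraries on average. Its response differed between genotypes by 1.06. When fed *php-3*, *lin-39* and *ceh-13* were lower in labelled-deficient libraries, with changes of -0.68, -0.51 and -0.51, and 0 were higher. When fasted *php-3* was higher by 0.38 and *lin-39* was lower, with a change of -0.53. The median of the Hox list was -0.43 for the genotypes when fed and -0.12 when fasted.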

How the data were processed

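The gene table deposited by the authors holds estimated counts per gene, and the transcript files hold estimated counts, TPM and lengths per transcript, per the file headers. Lengths (other values) served only to describe transcripts and for a length offset. The submitters' processing notes name Salmon 1.9.0, FastQC 0.11.8, MultiQC 1.19, R 4.3.2 and DESeq2 1.42.1 and the builds WBcel235 and ce11; strand use and annotation release are not given in the sources used here. Transcript sums equalled the gene counts within 0.01 reads for 21976 genes. Effective lengths exceeded listed lengths for 2495 transcripts, *mes-2* among them; the reason is not given in the sources used here, and how this moves its TPM was not tested. RNA was poly(A) selected and read as paired 150 bases, per the labels' protocols.

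Estimated counts were rounded, filtered with filterByExpr, scaled by TMM and fitted in edgeR 4.0.16 (R 4.3.3; robust quasi-likelihood, 1 coefficient per group, 16 libraries, common dispersion 0.0208), in 5 contrasts, two-sided, with Benjamini-Hochberg adjustment within a contrast. An SE is the change divided by the square root of F. A 95% interval takes the change as normally distributed with that SE. It is somewhat narrower than one from the finite degrees of freedom of the test. TMM factors averaged 1.07 in fasted and 1.04 in fed labelled-deficient and 1.07 in fasted and 0.843 in fed wild-type libraries; TPM carries no such scaling, so changes were read from CPM. Likeness used a prior count of 2. The scripts were tested on simulated data. No 2 libraries of a group were duplicates: chi-square per degree of freedom over genes was 5.75 to 85.1.

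Replicate numbers were checked by correlating deviations from group means, from the data only. Numbers were taken to pair libraries where every same-number r was above 0.1, which held between the fed groups (0.11 to 0.42). It was 0.01 to 0.23 for fasting in labelled-deficient libraries and 0.07 to 0.34 for fasting in wild type. Between the fasted genotypes it was -0.05 to 0.16. Pairing outside the fed groups is thus undecided, and the main fit uses none. Alternatives were the size factors of DESeq2, library size alone, no filter, a filter of 5 CPM, a length offset, DESeq2 1.42.0, limma 3.58.1 voom, 2 groups only, the replicate block, leaving out each library and, chosen after seeing the data, *mes-6* summed with C09G4.4. Named genes are the members, the listed genes and the 3 most alike genes per member. Members and lists were chosen with earlier results of these data known.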

Additional observations from a re-analysis of the deposited data

Results flagged for a closer look

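The fasting responses of *jmjd-3.2* and *utx-1* differed between the genotypes by -0.84 and -0.80 on the log2 scale, the labelled-deficient response minus the wild-type one, by the edgeR test of that difference. Of 40 groups of 4 libraries checked for a library apart from the rest by the test of Dixon, 5 had one, where chance gives about 1 in 20. Replicate 2 of the fed labelled-deficient group was highest for *jmjd-3.1*, at 21.4 CPM. For *mes-6* replicate 3 was lowest of the fasted labelled-deficient group at 60.3 CPM, and replicate 1 lowest of fasted wild type at 25.8 CPM. For *utx-1* replicate 4 was lowest of fed wild type at 17.9 CPM. The share of the leading *jmjd-3.1* transcript was lowest in replicate 4 of the fasted labelled-deficient group, at 62.2%.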

How the results depend on the processing

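The differences of fasting response of *jmjd-3.2* (-1.13 to -0.85 over 8 alternatives) and *utx-1* (-1.09 to -0.80), the genotype differences of *mes-2* and *mes-6* and the fed ones of *utx-1*, *jmjd-3.1* and *jmjd-3.2* passed in every alternative run on gene counts and without any 1 library. In the fit of transcripts the fed genotype difference did not pass for the leading *jmjd-3.1* transcript. The count of members called for fasting in labelled-deficient libraries was 4, but 2 without a filter on low counts (*utx-1* then 0.26, adjusted p 0.0652), 3 with the size factors or the Wald test of DESeq2 or with 2 groups only, 5 with library size alone or voom, and 6 with the filter of 5 CPM (of 6 tested), the length offset or the replicate block. With 1 library left out it was 3 to 5 there, 5 to 6 for fasting in wild type, 5 to 6 for the genotypes when fed, 2 to 3 when fasted and 2 for the difference of responses. The sign turned for changes that did not pass: *jmjd-3.3* between fed genotypes was 0.21 with library size alone, 0.0095 with 2 groups only, and -0.24 to 0.043 with 1 library left out (0.043 without fed wild-type replicate 2); the response difference of *mes-2* was -0.16 with library size alone; that of *mes-3* was 0.039 with the length offset and -0.099 to 0.044 with 1 library left out (0.044 without fed wild-type replicate 2). The cause was not tested. The filter of 5 CPM removed *jmjd-3.3* and called 6245 genes for fasting in wild type, against 9657. The response difference of *jmjd-3.1* passed with library size alone (-0.66) and with DESeq2 (-0.45; adjusted p 0.0468).

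Where the replicate numbers pair libraries, between the fed groups, the block changed no member's call and called 9951 genes, against 8908. Elsewhere pairing was undecided. For fasting in labelled-deficient libraries the block called 6 members, adding *mes-2* (0.31) and *jmjd-3.3* (0.47), and 7406 genes against 5594. It called 6 members for fasting in wild type and 3 between fasted genotypes, adding *jmjd-3.3* (-0.46). For the response difference it called 2 members, and 6422 genes against 4109. *jmjd-3.3* is limited by depth, with 1322 reads over all libraries.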
